A study of Homo sapiens with 6 samples.

Results

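The IgLON and LINGO genes NEGR1, LSAMP, NTM, OPCML, IGLON5, LINGO1 and LINGO2 encode neural cell surface adhesion proteins, and they were followed here in osteosarcoma cells depleted of the RNA binding protein SFPQ. They were taken by symbol from the count table, which holds 60664 genes, and all 7 had enough reads to be tested. The choice was made with their change already known: NEGR1 and LINGO2 were picked for the size of their fall in siSFPQ against siCTRL libraries. Their own change in that contrast is therefore given as a description with a standard error (SE), and their calls are counted beside those of all genes with nothing read from them.

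The cells were U-2 OS, an established line derived from a bone tumour and labelled polyploid. They were transfected at 30 nM with control siRNA (siCTRL) or siRNA against SFPQ (siSFPQ), with 3 libraries in each group. Polyadenylated RNA was sequenced in pairs of 150 base reads, and total counts per library ran from 43469321 to 47119203. The study calls the libraries biological triplicates, and the time between transfection and harvest was not given in the sources used here. These are bulk libraries, in which fewer cells of a type and less RNA per cell cannot be told apart.

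IgLON proteins (NEGR1, LSAMP, NTM, OPCML and IGLON5) are glycoproteins made of immunoglobulin domains and held on the outer membrane by a GPI anchor. They bind each other in trans and in cis, and are known in brain for roles in neurite outgrowth and synapse formation. LINGO proteins span the membrane and carry leucine-rich repeats with an immunoglobulin domain, and LINGO1 joins the Nogo receptor in a complex that limits axon growth and myelination. Many genes of such neural adhesion molecules have very long introns, and the question addressed here is how their RNA levels changed upon SFPQ depletion and how the change related to the span of each gene.

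The promoters of the genes with a single matched promoter window are shown first, because these members differed widely in both span and change. RefSeq sequence of GRCh38.p14, from 250 bases before to 50 bases after the start, was matched for 6 of the 7 genes. NTM has 5 such windows, OPCML has 2 and LINGO1 has 9. The windows of IGLON5 (chr19:51311394-51311693, plus strand), LSAMP (chr3:116445438-116445737, minus strand) and LINGO2 (chr9:28719256-28719555, minus strand) are given 5′ to 3′ in lower case with each CG dinucleotide in capitals.
IGLON5: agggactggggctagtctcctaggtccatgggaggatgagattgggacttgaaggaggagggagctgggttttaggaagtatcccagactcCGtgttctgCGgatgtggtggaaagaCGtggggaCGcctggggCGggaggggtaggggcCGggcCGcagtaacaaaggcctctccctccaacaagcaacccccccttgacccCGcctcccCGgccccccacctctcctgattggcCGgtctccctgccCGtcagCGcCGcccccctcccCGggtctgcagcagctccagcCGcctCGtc
LSAMP: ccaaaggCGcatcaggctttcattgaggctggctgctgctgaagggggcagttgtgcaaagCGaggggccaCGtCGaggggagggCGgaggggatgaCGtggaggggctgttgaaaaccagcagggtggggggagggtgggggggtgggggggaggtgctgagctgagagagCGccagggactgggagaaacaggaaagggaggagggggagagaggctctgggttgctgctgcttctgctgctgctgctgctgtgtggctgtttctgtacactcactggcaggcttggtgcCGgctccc
LINGO2: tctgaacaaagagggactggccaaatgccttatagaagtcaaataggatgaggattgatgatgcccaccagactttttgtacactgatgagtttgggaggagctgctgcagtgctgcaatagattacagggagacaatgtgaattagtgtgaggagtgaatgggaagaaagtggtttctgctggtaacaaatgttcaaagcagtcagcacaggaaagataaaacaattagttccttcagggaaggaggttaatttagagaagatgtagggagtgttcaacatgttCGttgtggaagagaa

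The IGLON5 window held 16 CG dinucleotides at a GC content of 66.7%, the LSAMP window 8 at 64.7% and the LINGO2 window 1 at 42.3%. Over all 35116 promoter windows of this length the median was 14 CG dinucleotides and 58.7% GC, and 3.96% of windows had fewer CG dinucleotides than LINGO2. CCAAT, searched on both strands, was found in the IGLON5 window and in 34.6% of all windows. GGGCGG, searched likewise, was found in the IGLON5 and LSAMP windows and in 45.0% of all windows. TATAAA was in none of these 3 windows and in 11.5% of all. The LINGO2 and LSAMP windows lie inside the GENCODE spans of these genes, not at their outer ends.

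SFPQ itself had 22338, 23139 and 21753 counts in the siCTRL libraries and 3140, 3863 and 3151 in the siSFPQ libraries. All siSFPQ libraries were below all siCTRL libraries, with 15.0% of the normalized count left. The log2 fold change of siSFPQ over siCTRL (log2FC) was -2.73 (SE 0.05, adjusted p = 6.34e-30, edgeR quasi-likelihood test with Benjamini-Hochberg adjustment over 29022 genes).

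**Figure D1:**
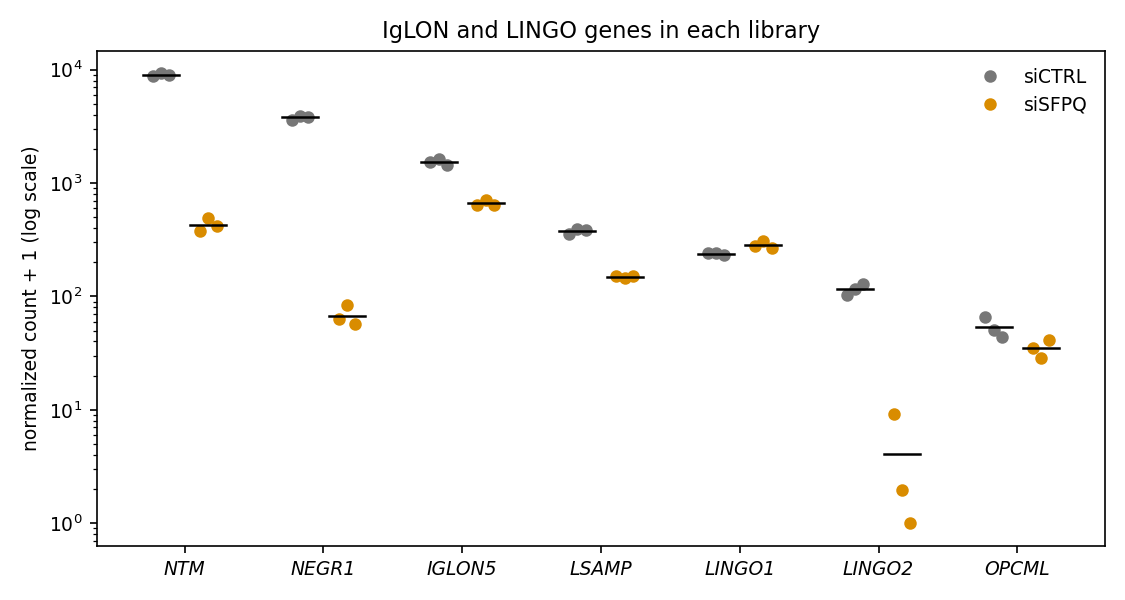
Normalized count plus 1 (log axis) of the 7 IgLON and LINGO genes in each of the 3 siCTRL and 3 siSFPQ libraries; each point is a library and each bar the mean of its group. In every gene the points of the 2 groups are separate, with siSFPQ lower in 6 genes and higher in LINGO1, and the LINGO2 library with 0 counts is the lowest point.

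NEGR1 (neuronal growth regulator 1, ENSG00000172260, chr1:71395943-72282539, minus strand) was among the deepest falls of the whole table. It had 3576, 3912 and 3841 counts in the siCTRL libraries and 60, 84 and 57 in the siSFPQ libraries. Every siSFPQ library was thus far below every siCTRL library, and the spread within each group was small beside the gap. Normalized counts, which put all libraries on a common effective size, went from 3782 ± 175 to 66.8 ± 13.7 (SD, n = 3 each), so that 1.77% was left. The log2FC was -5.82 (SE 0.083), the rank 38 by depth of fall among all 29022 genes tested and rank 3 among the 15641 with a mean of at least 1 CPM (counts scaled to library size).

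NTM encodes neurotrimin, an IgLON that promotes or restrains neurite growth depending on the neuron. The gene (ENSG00000182667, chr11:131370478-132336822, plus strand) was the most abundant member in siCTRL cells, with 8729, 9277 and 8985 counts. The siSFPQ libraries had 362, 496 and 425 counts, all of them below the siCTRL range. Normalized counts went from 9011 ± 266 to 426 ± 56.3 (SD, n = 3 each), a log2FC of -4.40 (SE 0.059) that left 4.73%. It ranked 21 by depth of fall among genes with a mean of at least 1 CPM.

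LSAMP is the limbic system-associated membrane protein, known in brain for guiding limbic projections and in osteosarcoma as a gene often lost or lowered. Its gene (ENSG00000185565, chr3:115802374-117139389, minus strand) had 350, 388 and 381 counts in siCTRL libraries and 145, 146 and 153 in siSFPQ libraries. The groups were apart, but the gap was much smaller than in NEGR1 or NTM. Normalized counts of 374 ± 20.0 and 148 ± 4.31 (SD, n = 3 each) gave a log2FC of -1.34 (SE 0.110), with 39.6% left.

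IGLON5 is the target of autoantibodies in anti-IgLON5 disease, a disorder of sleep and brainstem function. It is the compact member of the family (ENSG00000142549, chr19:51311644-51330891, plus strand), and it had 1531, 1624 and 1423 counts in siCTRL libraries and 616, 725 and 650 in siSFPQ libraries. Here too the groups were apart. Normalized counts went from 1528 ± 98.7 to 662 ± 41.2 (SD, n = 3 each), a log2FC of -1.21 (SE 0.065) with 43.3% left.

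OPCML, an IgLON that binds opioid alkaloids in vitro and is often silenced by methylation in ovarian tumours, was scarce in both groups. The gene (ENSG00000183715, chr11:132414977-133532501, minus strand) had 65, 50 and 43 counts in siCTRL libraries and 33, 28 and 41 in siSFPQ libraries. The lowest siCTRL library lay just above the highest siSFPQ library, at 43.1 against 40.4 normalized counts. With means of 52.7 ± 11.3 and 34.0 ± 6.52 normalized counts (SD, n = 3 each), the log2FC was -0.63 with a SE of 0.262, the least certain of the IgLON values.

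The LINGO pair did not share a direction. LINGO2, which like LINGO1 carries leucine-rich repeats but whose role in brain is less defined, is encoded at chr9:27937617-29213601 on the minus strand (ENSG00000174482). It had 101, 116 and 126 counts in siCTRL libraries and 8, 1 and 0 in siSFPQ libraries. The siSFPQ counts were at or near the floor of 3 counts (0.0637 to 0.0690 CPM, for counting error alone), and 8 of the 9 reads came from a single library. The log2FC was -5.20 (SE 0.397), -7.53 without siSFPQ replicate 1 and -4.61 without siSFPQ replicate 3, so its size rests on a few reads.

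LINGO1 (ENSG00000169783, chr15:77613027-77820900, minus strand) was the member that did not go down. Its siCTRL libraries had 239, 239 and 229 counts and its siSFPQ libraries 268, 315 and 272. The siSFPQ libraries were all above the siCTRL libraries by a narrow margin. Normalized counts were 236 ± 5.56 and 284 ± 21.1 (SD, n = 3 each), a log2FC of 0.27 (SE 0.107).

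In all, 3 of the 7 members (NEGR1, NTM and LINGO2) passed an adjusted p under 0.05 together with a log2FC under -1.5, the thresholds used by the study, against 4.77% of all genes tested. None passed in the higher direction with a log2FC over 1.5, against 5.54% of all genes. By adjusted p alone, 6 were lower (22.1% of all genes) and 1 was higher (22.4% of all genes). OPCML and LINGO1 no longer passed with DESeq2 or when any of 4 single libraries was left out. The groups did not overlap in any of the 7, as in 52.3% of all genes tested. Because members were picked on this contrast, nothing is read from these counts.

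Levels were compared between members as CPM per kb of merged exons. In siCTRL cells NTM stood highest at 28.3 ± 0.835 CPM per kb (SD, n = 3), followed by IGLON5 at 9.98 ± 0.645 and NEGR1 at 6.26 ± 0.290. LINGO1 at 0.969 ± 0.0228 and LSAMP at 0.795 ± 0.0427 CPM per kb came next. LINGO2 and OPCML were lowest, and their libraries overlapped, from 0.143 to 0.178 CPM per kb for LINGO2 and from 0.124 to 0.187 for OPCML. All other neighbours in this order were apart in all 3 libraries, and the order was the same with the longest transcript as the length, although NTM then stood at 61.7 CPM per kb.

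In siSFPQ cells the order of levels was different, with IGLON5 on top at 4.32 ± 0.269 CPM per kb (SD, n = 3). NTM at 1.34 ± 0.177 and LINGO1 at 1.17 ± 0.0867 CPM per kb overlapped between libraries, but with the longest transcript as the length they were apart, at 2.56 to 3.33 for NTM and 1.69 to 1.94 for LINGO1. NEGR1, at 0.110 ± 0.0226 CPM per kb, overlapped with OPCML at 0.0973 ± 0.0187. LINGO2 was the lowest at 0.00434 CPM per kb.

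Summed over the 5 IgLON genes, the siCTRL libraries held 14251, 15251 and 14673 counts and the siSFPQ libraries 1216, 1479 and 1326. The leading gene of the family was NTM in siCTRL and IGLON5 in siSFPQ libraries. NTM took 61.9, 61.8 and 63.0% of the summed CPM per kb in siCTRL libraries and 20.1, 22.8 and 21.8% in siSFPQ libraries. IGLON5 took 22.6, 22.5 and 20.7% in siCTRL libraries and 71.0, 69.4 and 69.4% in siSFPQ libraries. NEGR1 went from between 13.4 and 14.2% to between 1.54 and 2.04%, and LSAMP and OPCML had small shares in both groups. These shares depend on the length used. As shares of plain counts, with no length, NTM took 60.8 to 61.3% in siCTRL and 29.8 to 33.5% in siSFPQ libraries, IGLON5 9.70 to 10.7% and 49.0 to 50.7%, NEGR1 25.1 to 26.2% and 4.30 to 5.68%, and LSAMP 2.46 to 2.60% and 9.87 to 11.9%. The level of IGLON5 fell as well, so its larger share is a share of a smaller sum.

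**Figure D2:**
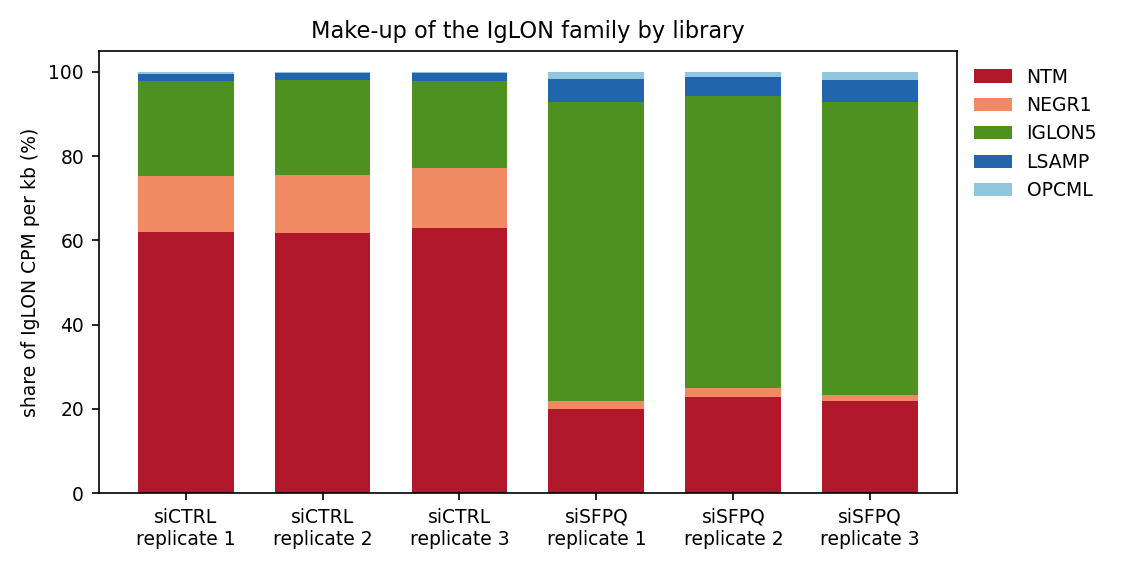
Share (percent) of the summed CPM per kb of merged exons that each of the 5 IgLON genes took in each library; each bar is a library and sums to the whole family. NTM fills most of the 3 siCTRL bars and IGLON5 most of the 3 siSFPQ bars, at 69.4 to 71.0%.

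The members differ greatly in span, which is the distance from the first to the last annotated base. LSAMP spans 1337 kb, LINGO2 1276 kb, OPCML 1118 kb, NTM 966 kb and NEGR1 887 kb, while LINGO1 spans 208 kb and IGLON5 19.2 kb. Nearly all of the long genes is intron, since merged exons make up 0.683% of OPCML, 0.720% of NTM, 0.768% of LSAMP, 1.21% of LINGO2 and 1.49% of NEGR1. In IGLON5 exons make up 17.4%. The longest single intron is 875 kb in OPCML, 564 kb in LSAMP and 541 kb in NTM, longer than the 347 kb of NEGR1 and 345 kb of LINGO2.

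Among protein-coding genes the medians were lower in the classes of longer genes. The median log2FC was 0.08 for the 3363 genes under 10 kb, 0.07 for the 6887 genes of 10 to 50 kb and -0.22 for the 2413 genes of 100 to 250 kb. It was -0.88 for the 703 genes of 250 to 500 kb, -1.35 for the 238 genes of 500 to 1000 kb and -1.39 for the 70 genes over 1000 kb. The median over all genes tested was 0.02. Called lower, by the thresholds above, were 2.08% of the genes under 10 kb, 1.19% of those of 10 to 50 kb, 3.25% of those of 50 to 100 kb and 9.74% of those of 100 to 250 kb. The share was 29.3% from 250 to 500 kb, 44.5% from 500 to 1000 kb and 41.4% over 1000 kb. By longest intron in place of span, the median over 1000 kb was -0.57, on 5 genes.

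Against genes of like span the members took very different places. NEGR1 had the lowest log2FC of all 238 genes of 500 to 1000 kb, 4.47 below their median, and only 3 of these genes were lower than NTM. LINGO2 was lower than all but 2 of the 70 genes over 1000 kb. This place is uncertain, since it rests on 8, 1 and 0 counts in siSFPQ libraries. Its log2FC ranged from -7.53 to -4.61 when 1 library was left out. LSAMP, of the same class, sat in its middle, with 37 of the 70 genes lower and a difference of 0.06 from the class median. OPCML, also of this class, lay 0.76 above the median, with 47 of the 70 genes lower. NEGR1 and LINGO2 were picked for the size of their fall in this contrast. A low place in their classes was thus set by the choice, and nothing is read from it.

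IGLON5 was low for a short gene. Of the 6887 genes of 10 to 50 kb, 175 (2.54%) had a lower log2FC than this short gene, whose value was 1.28 below the class median. LINGO1 was higher than 82.6% of the 2413 genes of 100 to 250 kb. These places too are descriptions, since the members were chosen with their change known.

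Spearman's rho between span and log2FC was -0.29 over the 7 members and -0.28 over 16477 protein-coding genes, both descriptions across genes, which are not independent replicates and share the same 6 libraries. With the longest intron in place of the span, rho was -0.07 over the members. With the RefSeq span, an alternative chosen after seeing the data and in which LSAMP measures 643 kb, it was -0.43. Since the members were picked on their change, nothing is read from these values.

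**Figure D3:**
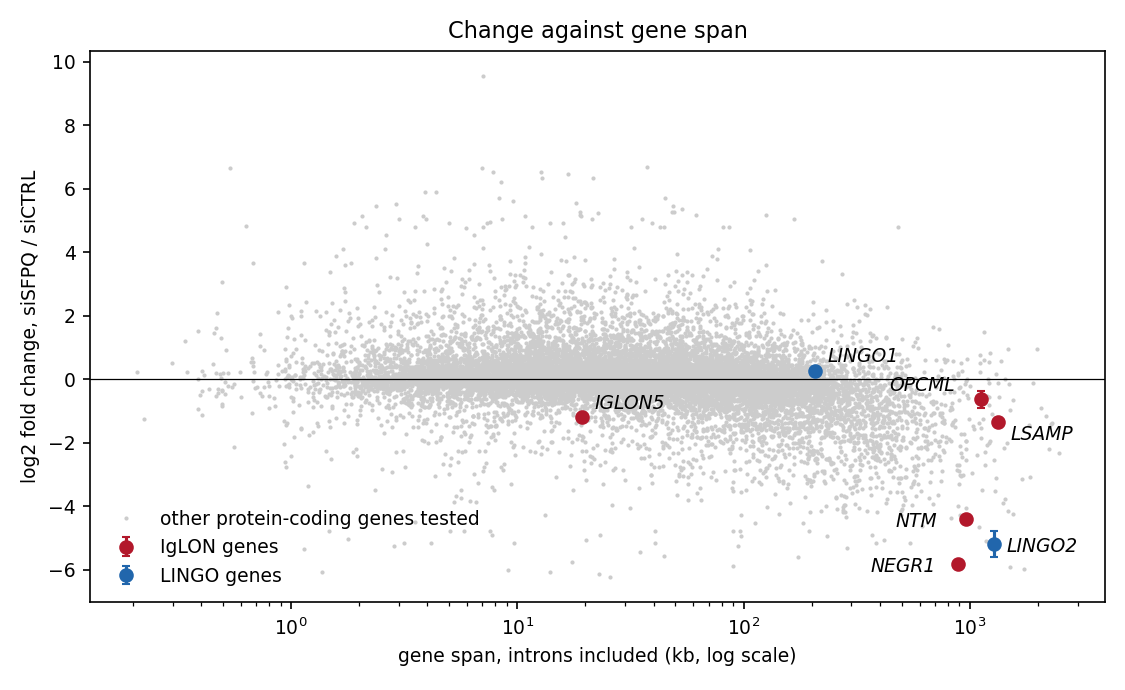
Log2FC (siSFPQ / siCTRL) against gene span in kb (log axis) for the protein-coding genes tested, drawn as grey points, with the 7 members named and coloured as IgLON or LINGO genes and their bars giving 1 SE. The cloud of points bends down at long spans, NEGR1, LINGO2 and NTM lie at its lower edge, and LSAMP and OPCML lie nearer 0 at like or longer spans.

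Annotated neighbours that overlap a member or lie within 100 kb were read next, 31 distinct genes with enough counts, 12 of them overlapping a member. By the edgeR quasi-likelihood test 4 were lower and 3 higher at an adjusted p under 0.05, against 22.1% and 22.4% of all genes tested. All 4 that were lower lie in or next to NTM, LSAMP or LINGO2. Other genes within these spans did not fall with them. BZW1P2 and PTMAP8, within LSAMP, had log2FCs of -0.01 and 0.13 and did not pass. The scarce ENSG00000238117, ENSG00000237654 and ENSG00000285980, within NTM, had 0.91, 0.31 and 0.19 and did not pass. ENSG00000271624, a processed pseudogene within an intron of NTM on the opposite strand (chr11:131770795-131771638), had 82, 75 and 86 counts in siCTRL libraries and 2, 8 and 1 in siSFPQ libraries. Its groups were far apart, and its log2FC of -4.43 (SE 0.387, adjusted p = 1.26e-11 by edgeR with Benjamini-Hochberg adjustment) stood beside -4.40 for NTM itself.

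LSAMP-AS1, a noncoding gene opposite to LSAMP (chr3:116360024-116370090), had 9, 13 and 6 counts in siCTRL libraries and 0, 0 and 1 in siSFPQ libraries, a ratio of 0.0356 (95% counting interval 0.000871 to 0.215). Since the strand setting of the counting is not given in the sources used here, reads of this gene and of the pseudogene in NTM cannot be told apart from intronic reads of LSAMP and NTM. ENSG00000231698, a noncoding gene 19561 bp from NTM, had 14, 11 and 11 counts in siCTRL libraries and 3, 1 and 3 in siSFPQ libraries. Within the exons of LINGO2 on the same strand lies ENSG00000260412 (chr9:27937617-27944497), which had 20, 27 and 14 counts in siCTRL libraries and 1, 0 and 0 in siSFPQ libraries. It shares all of its 6881 exonic bases with LINGO2, so the split of reads between these genes is uncertain, as are the count and the level per kb of LINGO2.

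The other neighbours did not pass in the lower direction. The lowest value among them was -1.55 for ENSG00000259362 near LINGO1, with 8, 11 and 11 counts in siCTRL libraries and 3, 1 and 6 in siSFPQ libraries. NTM and OPCML lie 78155 bp apart on chromosome 11, with log2FCs of -4.40 and -0.63. GAP43, a growth cone protein gene 80884 bp from LSAMP, had a log2FC of 0.48, and VSIG10L, whose nearest end lies 645 bp from IGLON5, had 0.01. SIGLEC10, 79129 bp from IGLON5 and encoding an inhibitory receptor of immune cells, rose with a log2FC of 1.48 (adjusted p = 3.78e-07 by edgeR). The other genes that rose were RN7SL815P, which lies within LSAMP, and ENSG00000268520, near IGLON5. RN7SL815P had 0, 0 and 1 counts against 3, 8 and 3, and ENSG00000268520 had 1, 1 and 4 counts against 4, 16 and 7. ZRANB2-DT, which shares 985 exonic bases with NEGR1, had 27, 17 and 22 counts in siCTRL libraries and 15, 11 and 8 in siSFPQ libraries, which is little beside the siCTRL counts of NEGR1 but not beside its siSFPQ counts.

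Among the genes whose 6-library profile lay nearest to that of NEGR1 were SEMA3E, GPC6, LINC03033 and NCAM2. Likeness was the Euclidean distance between profiles of log2 CPM set to the siCTRL mean, over 15635 genes, and ran from 0.777 for SEMA3E to 2.19 for NCAM2. SEMA3E encodes a secreted axon guidance cue and GPC6 a GPI-anchored glypican. Their spans were 286 kb for SEMA3E and 1181 kb for GPC6. NCAM2, a neural cell adhesion molecule of the immunoglobulin superfamily, was also the nearest to NTM, at a distance of 0.431, followed by PRKD1 and CACNA2D1.

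The other members had other genes nearest in profile. Among the nearest to LSAMP were EXT2, which spans 156 kb, and SUCLG2-DT, which spans 293 kb. The nearest to IGLON5 were RSRC1, MAN1A1 and CCDC144NL-AS1, to LINGO1 AASDH, TNK2 and SPTBN5, and to LINGO2 RSPO4, CPNE4 and ZCCHC7. A pseudocount of 0.5 CPM in these profiles compresses the fall of the scarce LINGO2. It also compresses that of NCAM2, which had a mean of 0.450 CPM in siSFPQ libraries. The log2FC of NCAM2 was -5.17, against -4.40 for NTM, so its distances from NTM and NEGR1 depend on this pseudocount.

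Partners of LINGO1 in the Nogo receptor complex went in both directions. Of 15 genes in this list 13 were tested, and 6 were lower and 4 higher at an adjusted p under 0.05 (22.1% and 22.4% of all genes tested), with a median log2FC of -0.03. RTN4R, the Nogo receptor itself, had 1353, 1338 and 1354 counts in siCTRL libraries and 647, 708 and 634 in siSFPQ libraries. All siSFPQ libraries were below the siCTRL libraries, a fall of 1.03 on the log2 scale (SE 0.063, adjusted p = 1.77e-15 by edgeR). Its homologue RTN4RL1 was scarce, with 24, 25 and 12 counts against 3, 2 and 3, a ratio of 0.131 (95% counting interval 0.0540 to 0.274).

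The signalling co-receptors of this complex are NGFR, the p75 neurotrophin receptor, and TNFRSF19, also called TROY, which can stand in for it. NGFR had a log2FC of 0.02 (adjusted p = 0.907 by edgeR). TNFRSF19 had 44, 36 and 57 counts in siCTRL libraries and 190, 198 and 220 in siSFPQ libraries, without overlap, and rose with a log2FC of 2.14 (SE 0.170, adjusted p = 1.25e-12 by edgeR). OMG, a myelin glycoprotein that is a ligand of the receptor, rose from 14, 13 and 13 counts to 115, 91 and 90, with a log2FC of 2.87 (SE 0.261, adjusted p = 3.10e-11 by edgeR). The ligand RTN4, or Nogo, rose by a log2FC of 0.12, and the downstream RHOA, ROCK1 and ROCK2 had values of -0.20, -0.29 and -0.35, all lower at an adjusted p under 0.05. Of the remaining LINGO genes, LINGO3 had 0, 1 and 2 counts in siCTRL libraries and none in siSFPQ libraries, and LINGO4 had none against 1, 4 and 2, so neither was tested.

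Genes that attach IgLON proteins to the membrane, shed them or bind them were lower in 7 of 8 and higher in none at an adjusted p under 0.05 (22.1% and 22.4% of all genes tested), with a median log2FC of -0.31. PIGK, the catalytic subunit of the GPI transamidase, went from 4119 to 1917 normalized counts with a log2FC of -1.10 (SE 0.045, adjusted p = 2.55e-20 by edgeR). PIGU of the same enzyme had a log2FC of -0.72 and the sheddase ADAM10 -0.36. GPAA1, a further subunit, had -0.06 and did not pass (adjusted p = 0.191). NCAM1, which also belongs to the immunoglobulin adhesion list, was the sole gene of this list called lower, from 6128 ± 375 to 1513 ± 134 normalized counts (SD, n = 3 each), with a log2FC of -2.02. PIGK, PIGU, ADAM10 and NCAM1 span 130, 138, 161 and 317 kb. The shorter PIGS, PIGT and GPAA1 span 18.4, 40.9 and 10.8 kb, and PIGS and PIGT had log2FCs of -0.16 and -0.26. FGFR2, which spans 120 kb, had -0.19. The relation of change to span within this list was not tested.

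Many other neural adhesion genes of the immunoglobulin superfamily were lower. Of 29 listed genes 27 were tested, 21 were lower and 1 was higher at an adjusted p under 0.05 (22.1% and 22.4% of all genes tested). The median log2FC was -1.40 against 0.02 over all genes, and 12 were called lower (4.77% of all genes). All 12 span 100 kb or more, where 9.74 to 44.5% of protein-coding genes were called lower by span class. The list was chosen with earlier results of these data known, so these counts are a description. NCAM2 had 713, 807 and 711 counts in siCTRL libraries and 19, 29 and 14 in siSFPQ libraries, a log2FC of -5.17 (SE 0.149, adjusted p = 1.63e-24 by edgeR) close to that of LINGO2. SDK1, a sidekick protein of synaptic layers that spans 968 kb, had 3636, 3984 and 3308 counts against 199, 241 and 219, a log2FC of -4.06 (SE 0.072, adjusted p = 3.40e-30 by edgeR). NRCAM, SDK2, KIRREL3 and CADM1 had log2FCs of -3.07, -3.04, -3.04 and -2.72, and all 4 were called lower. DSCAML1, also called lower, rested on 16, 6 and 3 counts against 0, 0 and 4, so that its groups overlapped.

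Of the contactins, GPI-anchored like the IgLONs, 4 were called lower (4.77% of all genes tested), while CNTN2 and CNTN5 did not pass. CNTN1 had a log2FC of -2.44, CNTN3 -2.34 and CNTN4 -1.96, and the scarce CNTN6 joined these 3 with 22, 12 and 17 counts against 0, 0 and 3. CNTN5, which spans 1338 kb, had 4, 6 and 3 counts in siCTRL libraries and 3, 6 and 3 in siSFPQ libraries, too few to show a change. CNTN2 was likewise scarce, with 0, 7 and 1 counts in siCTRL libraries and 0, 3 and 6 in siSFPQ libraries. CADM2, which spans 1115 kb, had 20, 8 and 11 counts against 18, 25 and 23 and did not pass. The gene that rose was IGSF9, from 908 to 1837 normalized counts with a log2FC of 1.02.

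Neural adhesion genes with leucine-rich repeats, the domain type of the LINGO proteins, went in both directions. Of 34 listed 32 were tested, 13 were lower and 6 higher at an adjusted p under 0.05 (22.1% and 22.4% of all genes tested), with a median log2FC of -0.35, and 4 were called lower and 1 higher (4.77% and 5.54% of all genes). The difference between the immunoglobulin and leucine-rich repeat lists was not tested. LRRN1, a 50.4 kb gene, had 7705, 7919 and 7439 counts in siCTRL libraries and 718, 966 and 824 in siSFPQ libraries, a log2FC of -3.21 (SE 0.056). FLRT2, a ligand of UNC5 receptors, had 2529, 2677 and 2337 counts against 320, 382 and 313, and its log2FC was -2.90 (SE 0.069). ELFN1 and LRIG3 were called lower with -1.66 and -1.62. LRRC4C, a netrin-G ligand whose gene spans 1346 kb, had 1704, 1645 and 1612 counts against 1102, 1236 and 1063 and a log2FC of -0.55, one of the long genes with a small change. LRRTM2, called higher, rested on 0, 2 and 0 counts against 12, 11 and 6, and it was not called under filterByExpr.

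Set apart by span, with 22.1% lower and 22.4% higher over all genes tested, the 35 tested genes of both adhesion lists under 100 kb had a median log2FC of -0.27, with 14 lower and 7 higher at an adjusted p under 0.05, and 3 were called lower and 1 higher, beside 1.19 to 3.25% called lower in the classes of all protein-coding genes under 100 kb. All 3 that were called lower belong to the leucine-rich repeat list. The 24 genes of 100 kb or more had a median of -1.99, with 20 lower and none higher, and 13 were called lower, beside the shares of 9.74 to 44.5% in the classes of all protein-coding genes of such span. The immunoglobulin list alone had medians of -0.27 over 9 shorter genes and -2.39 over 18 longer ones. The leucine-rich repeat list had a median of -0.12 over 26 shorter genes, of which 9 were lower and 6 higher, while 4 of its 6 longer genes were lower and none was higher. Across the 59 genes Spearman's rho between span and log2FC was -0.58, a description across genes of the same 6 libraries.

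Markers of cell types were read beside these values, and their counts at an adjusted p under 0.05 stand beside 22.1% lower and 22.4% higher over all genes tested. The tissue label is bone, and of the osteoblast lineage list COL1A1 was the most abundant gene and RUNX2, the master factor of the lineage, had 2637 ± 79.1 and 2749 ± 77.3 normalized counts (SD, n = 3 each). SP7 and IBSP, which mark later osteoblasts, were at 0 to 5 counts in every library. The 9 osteoblast genes summed to 5060, 5391 and 5185 CPM in siCTRL libraries and 4314, 4346 and 4326 CPM in siSFPQ libraries, and of 7 tested 3 were lower and 1 higher at an adjusted p under 0.05, with a median log2FC of -0.08. COL1A1, SPARC and SPP1, which encode matrix proteins of bone, were lower with log2FC values of -0.35, -0.17 and -1.33. The gene that rose was BGLAP, the osteocalcin gene, with 0, 0 and 1 counts against 5, 6 and 6, a ratio of 16.9 (95% counting interval 2.65 to 708), and it was not called under filterByExpr or without siCTRL replicate 2.

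The 13 neuron markers summed to 156, 161 and 160 CPM in siCTRL libraries and 162, 164 and 169 in siSFPQ libraries, led by NEFL. Without NEFL the mean sum was 46.9 and 21.0 CPM. At an adjusted p under 0.05, 4 of the 13 were lower and 3 higher, with a median log2FC of 0.28. All 4 were also called lower and none was called higher (4.77% and 5.54% of all genes). MAP2 had 860, 981 and 867 counts against 96, 112 and 84, RBFOX3 275, 301 and 298 against 34, 36 and 52, and SYT1 136, 146 and 166 against 16, 22 and 31, with log2FCs of -3.22, -2.84 and -2.70. SNAP25 was also lower, at -1.64, while TUBB3 and STMN2 rose with 1.17 and 1.44. ELAVL3, a neuronal RNA binding protein gene, had 2, 0 and 3 counts against 6, 7 and 7.

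Of 6 astrocyte markers 5 were tested, with 2 lower and 2 higher at an adjusted p under 0.05 and a median log2FC of 0.22, and their sum of 164, 159 and 161 CPM against 124, 125 and 123 was mostly GJA1. Without GJA1 the mean sum went the other way, with 35.7 and 45.3 CPM. GFAP and ALDH1L1 rose with 1.33 and 1.18 on the log2 scale, and AQP4 was too low to be tested. Of 8 oligodendrocyte markers 7 were tested, with 1 lower and 3 higher and a median of 0.78, and their sum of 162, 163 and 163 CPM against 150, 153 and 159 was mostly CNP. Without CNP the mean sum was 6.71 and 13.4 CPM, again the other way. OLIG1, a transcription factor of the lineage, was called higher with a log2FC of 1.86, as was SOX10 on 4, 4 and 3 counts against 10, 23 and 6, and MOG was too low to be tested. Of the 2 calls 1 was lost with DESeq2, filterByExpr or the replicate block, and without siCTRL replicate 3, siSFPQ replicate 1 or siSFPQ replicate 2. The part of other cell types in the change of the IgLON and LINGO genes was not tested.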

How the data were processed

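RNA-seq was made from U-2 OS cells in 2 groups of 3 libraries, grouped by their GEO labels. Per the study's methods and the submitters' processing notes, the authors checked reads with FastQC and obtained gene counts with STAR 2.7.9a on Ensembl GRCh38, and the deposited table holds raw counts, not normalized. The library kit was stranded, and the strand setting of the counting is not given in the sources used here. All columns were used (0 left out). Genes were named, and spans and exons taken, from GENCODE 44 (GRCh38), which matched 60463 of 60664 identifiers (99.7%). Neighbouring genes were taken from the same annotation.

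Genes with at least 10 counts in total (29022) were tested with edgeR 4.0.16 (TMM, glmQLFit and glmQLFTest, limma 3.58.1, R 4.3.3), with Benjamini-Hochberg adjustment, two-sided. The study's thresholds of adjusted p under 0.05 and a log2FC beyond 1.5 were kept. DESeq2 1.42.0, other scalings, filters and thresholds, a replicate block and leaving out each library were alternatives. The fits were tested on simulated data. Ratios of summed counts have exact 95% counting intervals, which cover counting error only. Libraries of 1 group differed by more than counting error (chi-square over its degrees of freedom 3.77 to 5.49, against 82.0 to 102 between groups), and each was counted as a replicate.

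Members and gene lists were chosen with earlier results of these data known. Genes named are the members, SFPQ, tested genes within 100 kb, the listed genes that were called or, with a mean of at least 1 CPM, had up to the 5 largest changes in each direction, and the nearest profiles (5 for NEGR1, 3 for the others with a mean of at least 1 CPM), of which some are not reported here. CNTN2, CNTN5, CADM2, LRRC4C, NGFR, GPAA1, PIGS, FGFR2, LINGO3, LINGO4, SP7, IBSP, AQP4, MOG, RUNX2, ELAVL3 and signalling genes with small values were named in addition, after their values were seen.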

Additional observations from a re-analysis of the deposited data

How the results depend on the processing

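No member's change and neither class median of long genes was reversed in sign under any alternative run. NEGR1, NTM, LSAMP, IGLON5 and LINGO2 stayed on the same side of adjusted p 0.05 under each. OPCML did not pass with DESeq2 (log2FC -0.64), with library size as the sole scaling (-0.57) or with no count filter (-0.65), and ranged from -0.77 to -0.45 when 1 library was left out, not passing without siCTRL replicate 1 or 2 or siSFPQ replicate 1 or 2. LINGO1 did not pass with DESeq2 (0.27) or with no count filter (0.26), and ranged from 0.19 to 0.32 when 1 library was left out, not passing without siCTRL replicate 2 or 3 or siSFPQ replicate 1 or 2. The cause was not tested. With the replicate number as a block, OPCML was -0.63 and did not pass by edgeR, and 1240 genes were called lower and 1419 higher. The numbers share only a label, since same-numbered deviations correlated at -0.003, 0.088 and 0.055.

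Of all genes 1384 were called lower and 1609 higher. Without a fold threshold these were 6421 and 6514, among protein-coding genes alone 830 and 581, and under filterByExpr, with fewer genes tested, 996 and 967, so that the larger of these counts depends on the genes tested. Members lower numbered 5 at a log2 threshold of 1, where 2060 of the 29022 genes tested were called lower and 2342 higher. With no fold threshold 6 members were lower and 1 was higher. The balance of single lists also depends on the fold threshold, as in the Nogo receptor list with 1 called lower and 2 higher but 6 and 4 without a threshold. Of listed genes 21 were called lower and 6 higher. With no threshold 56 were lower and 20 higher, while 13 were higher at a threshold of 1 and 3 under filterByExpr. The median for 500 to 1000 kb was -1.07 by longest intron and -1.29 by library size alone. For over 1000 kb it was -0.57 by longest intron, on 5 genes, -1.82 at a mean of at least 1 CPM, -1.33 by library size alone, and -1.44 to -1.31 when 1 library was left out. At this depth LINGO2 in siSFPQ cells cannot be measured below the floor of 3 counts.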
